A study of Mus musculus with 36 samples.

Results

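The 7 subunits of respiratory complex I that are encoded in the mouse mitochondrial genome (mtDNA) were followed through 6 RNA-seq count tables. Their genes, mt-Nd1, mt-Nd2, mt-Nd3, mt-Nd4, mt-Nd4l, mt-Nd5 and mt-Nd6, were chosen as a set by name and chromosome, with earlier results of these data known, and were found by gene identifier in each table: 7 of the 37 genes on chromosome MT, and 7 of 51912 to 55487 genes in a table. Complex I is the NADH:ubiquinone oxidoreductase that feeds electrons into the respiratory chain and pumps protons across the inner mitochondrial membrane. The 7 mtDNA-encoded proteins form the core of its membrane arm. The core subunits of the peripheral arm, which carry the flavin and the iron-sulphur clusters, together with all accessory subunits and the assembly factors, are made from nuclear genes. mtDNA is transcribed on both strands into long precursors that are cut at the tRNAs between the genes. The mRNAs of the other 6 genes are read from one strand and mt-Nd6 alone comes from the opposite one, and mature mt-Nd6 mRNA is known to lack the poly(A) tail that the others carry.

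The series holds 36 libraries, 6 per table. Wild-type C57BL/6 males (C57BL/6N in the study's methods), 6 weeks old at the start, were fed for 2 weeks on a high-fat diet (HFD, 60% of kcal from fat) or a low-fat diet (LFD, 10%). Mature sperm were taken from the cauda epididymis by swim-up (3 HFD and 3 LFD libraries), and morulae were picked after 72 h of culture of eggs fertilised in vitro with such sperm (3 libraries with HFD and 3 with LFD fathers). Round spermatids from testes of males on both diets gave 6 libraries whose columns do not say which diet they belong to. These 3 tables came from a whole-transcript (Nextera) kit with 75-base reads. Liver, epididymal white fat (eWAT) and gastrocnemius muscle came from male offspring of HFD-fed fathers that themselves ate chow, and were labelled HFDt (glucose tolerant) or HFDi (glucose intolerant). Columns of these tables do not show which is which, so each tissue is treated as 1 group of 6 libraries. They came from a kit that reads the 3′ end of polyadenylated RNA (QuantSeq 3′ FWD, 50-base reads). Levels are given as CPM (counts scaled to a library of 1000000 counts). With the whole-transcript kit, genes are compared with each other only as CPM per kilobase of gene (CPM per kb). A 3′ tag kit counts ends, so its levels and shares carry no length, with the exception of the ratios of mt-Nd6 to its neighbours, which are given both ways. Values are never compared between the kits.

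Library totals ran from 20138842 to 31056066 counts in round spermatids, from 2560219 to 4062321 in sperm, from 11471251 to 12153141 in morulae and from 369772 to 4055537 in the offspring tissues, the lowest being a gastrocnemius library. The labelled tissues carried their own markers: summed CPM of the fixed lists was 4294 to 10841 for spermatid and sperm genes in sperm, 43921 to 65221 for liver genes in liver, 14878 to 28927 for fat genes in eWAT and 38159 to 83805 for muscle genes in gastrocnemius, each with every gene of its list counted. Round spermatids had 9529 to 12398 CPM of the spermatid and sperm genes, a list that does not separate them from sperm. The morula list, which includes the pluripotency factors Pou5f1, Nanog and Sox2, summed to 250.0 to 319 CPM in morulae, with 7 of 7 genes counted. Its sum was 90.1 to 182 CPM in liver and 9.51 to 168 CPM in sperm, where Pou5f1, Nanog and Sox2 had no counts. Sperm held counts of 5 of 5 genes of epididymal epithelium, at 1952 to 32081 CPM. Sperm were the tissue with the widest range of mtDNA-encoded counts, 43.5% to 84.3% of a library. The data are bulk RNA, in which fewer cells of a type and less RNA per cell cannot be told apart.

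The position of the 7 genes bears on how their reads can be counted. On GRCm38, the build of the deposited tables, mt-Nd1 lies at MT:2751-3707, mt-Nd2 at MT:3914-4951, mt-Nd3 at MT:9459-9806, mt-Nd4l at MT:9877-10173, mt-Nd4 at MT:10167-11544 and mt-Nd5 at MT:11742-13565, all on the plus strand, and mt-Nd6 at MT:13552-14070 on the minus strand. Each is a single exon. The last 14 bases of mt-Nd5 and of mt-Nd6 are the same stretch of DNA read in opposite directions, shown here in capitals at the 3′ ends of both genes (GENCODE M21 transcripts).
mt-Nd5, MT:13536-13565, plus strand: attatcttatactcaaTTAATCTCGAGTAA
mt-Nd6, MT:13552-13581, minus strand: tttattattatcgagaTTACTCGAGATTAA

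mt-Nd4l and mt-Nd4 share 7 bases in 2 reading frames on the same strand and are known to be carried on 1 bicistronic mRNA. The overlap, in capitals, holds the stop codon of mt-Nd4l and the start codon of mt-Nd4. The annotated mt-Nd4 ends in a lone T after its last whole codon, the last letter shown, and such incomplete stop codons are known to be completed by the poly(A) tail.
mt-Nd4l end, MT:10144-10173: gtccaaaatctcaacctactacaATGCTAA
mt-Nd4 start, MT:10167-10196: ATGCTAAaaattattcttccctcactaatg
mt-Nd4 end, MT:11515-11544: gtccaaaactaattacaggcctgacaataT

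Pieces of mtDNA copied into nuclear chromosomes make some of these sequences ambiguous. Every window of 75 bases, the read length of the whole-transcript libraries, was looked up in the annotated nuclear transcripts. No window of mt-Nd1 or mt-Nd6 was found there. The share was 1.66% for mt-Nd5, 5.71% for mt-Nd2, 61.5% for mt-Nd4, 97.8% for mt-Nd3 and 98.7% for mt-Nd4l. The copies of the last 3 genes are neighbouring unprocessed pseudogenes on chromosome 1: Gm28438 (chr1:24612775-24613119) for mt-Nd3, Gm10222 (chr1:24612407-24612700) for mt-Nd4l and Gm28439 (chr1:24611535-24612410) for bases 1 to 876 of mt-Nd4. The sequence of mt-Nd4l is shown whole because 294 of its 297 bases lie in windows that are identical in Gm10222, and only the final 3, in capitals, lie in none. The stretch of mt-Nd4 is the place where its identity with Gm28439 ends, and its capitals mark the bases after the last shared window.
mt-Nd4l, MT:9877-10173: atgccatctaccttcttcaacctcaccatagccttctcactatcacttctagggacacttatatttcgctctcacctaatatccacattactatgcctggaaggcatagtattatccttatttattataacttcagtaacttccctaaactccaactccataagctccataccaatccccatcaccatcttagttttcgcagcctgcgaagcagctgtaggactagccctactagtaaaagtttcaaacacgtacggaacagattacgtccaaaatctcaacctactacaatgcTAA
mt-Nd4, MT:10983-11102: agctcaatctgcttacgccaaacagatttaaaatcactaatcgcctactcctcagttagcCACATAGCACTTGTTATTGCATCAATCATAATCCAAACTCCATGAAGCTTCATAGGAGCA

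The strands also differ in base composition. G makes up 28.1% of mt-Nd6 and C 5.97%, against 8.0% to 11.6% G and 22.1% to 29.97% C in the other 6 genes. The first bases of mt-Nd6 and mt-Nd1, each with its start codon in capitals, show the difference.
mt-Nd6 start, MT:13951-14070, minus strand: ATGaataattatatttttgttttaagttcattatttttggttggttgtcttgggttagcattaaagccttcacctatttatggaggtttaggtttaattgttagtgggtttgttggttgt
mt-Nd1 start, MT:2751-2870, plus strand: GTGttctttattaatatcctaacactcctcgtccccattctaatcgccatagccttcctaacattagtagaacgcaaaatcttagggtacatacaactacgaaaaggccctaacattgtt

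In the 3 tables of the whole-transcript kit, mt-Nd1 had the highest level per length of the 7 genes and mt-Nd3 and mt-Nd4l the lowest, while the order in between differed from tissue to tissue. In round spermatids the lowest, median and highest levels of mt-Nd1 over 6 libraries were 413, 485 and 544 CPM per kb. mt-Nd2 followed at 206, 238 and 272, mt-Nd5 at 172, 193.2 and 225, mt-Nd4 at 139, 160 and 177, and mt-Nd6 at 123, 148 and 157 CPM per kb. Each gene stood above the next in every library, except that mt-Nd4 stood above mt-Nd6 in 5 of 6. mt-Nd4l reached 6.85 to 10.8 CPM per kb (51 to 74 counts a library) and mt-Nd3 3.9 to 6.74 (38 to 58 counts). The step from mt-Nd6 to mt-Nd4l was 4.05 ± 0.29 on the log2 scale (SD, n = 6), by far the widest in that order.

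In sperm mt-Nd1 lay at 5202, 10074 and 11702 CPM per kb (lowest, median and highest of 6) and mt-Nd5 was next at 3236, 4882 and 5615. mt-Nd6 (2123, 3019 and 3863) and mt-Nd4 (1621, 3333 and 3757) could not be put in order: mt-Nd6 was the higher in 3 of 6 libraries, and the log2 ratio of the pair was 0.03 ± 0.53 (SD). mt-Nd2, second in round spermatids, took the fifth place here at 1167, 2350 and 2754 CPM per kb, and lay below mt-Nd4 in 6 of 6 libraries. mt-Nd3 had 9 to 19 counts in a library, 10.1 to 15.4 CPM per kb. mt-Nd4l was counted 0 times in all 6 sperm libraries, against 401 counts of its nuclear copy Gm10222. It was not alone in this: of the other mRNAs of mtDNA, mt-Co2 and mt-Atp8 were also at 0 in 6 of 6 sperm libraries, and mt-Co3 and mt-Atp6 had at most 1 count. A count of 0 in 19259820 allows up to 0.156 CPM over the 6 libraries, or 0.738 to 1.17 CPM in a single one, of reads that were assigned to mt-Nd4l. Reads of mt-Nd4l RNA that were assigned elsewhere or to no gene are not in this limit.

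In morulae the order began with mt-Nd1 at 9718, 12598 and 13307 CPM per kb and mt-Nd2 at 8675, 9436 and 11467, a step of only 0.34 ± 0.18 on the log2 scale that nevertheless had the same direction in 6 of 6 libraries. mt-Nd5 (5313, 6781 and 7246), mt-Nd4 (3898, 4767 and 5543) and mt-Nd6 (2420, 3239 and 4019 CPM per kb) followed. mt-Nd4l, at 285 to 356 CPM per kb, stood above mt-Nd3, at 241 to 283, in every library. These were the only libraries in which mt-Nd3 and mt-Nd4l had near 1000 counts each: 974 to 1151 and 981 to 1249. Their copies Gm28438 and Gm10222 had 1595 and 3778 counts over the 6 morula libraries, and Gm28439 had 11435. The sources used here do not state how reads that match more than one place were counted, and the part of the copies in the levels of mt-Nd3, mt-Nd4l and mt-Nd4 was not tested.

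**Figure D1:**
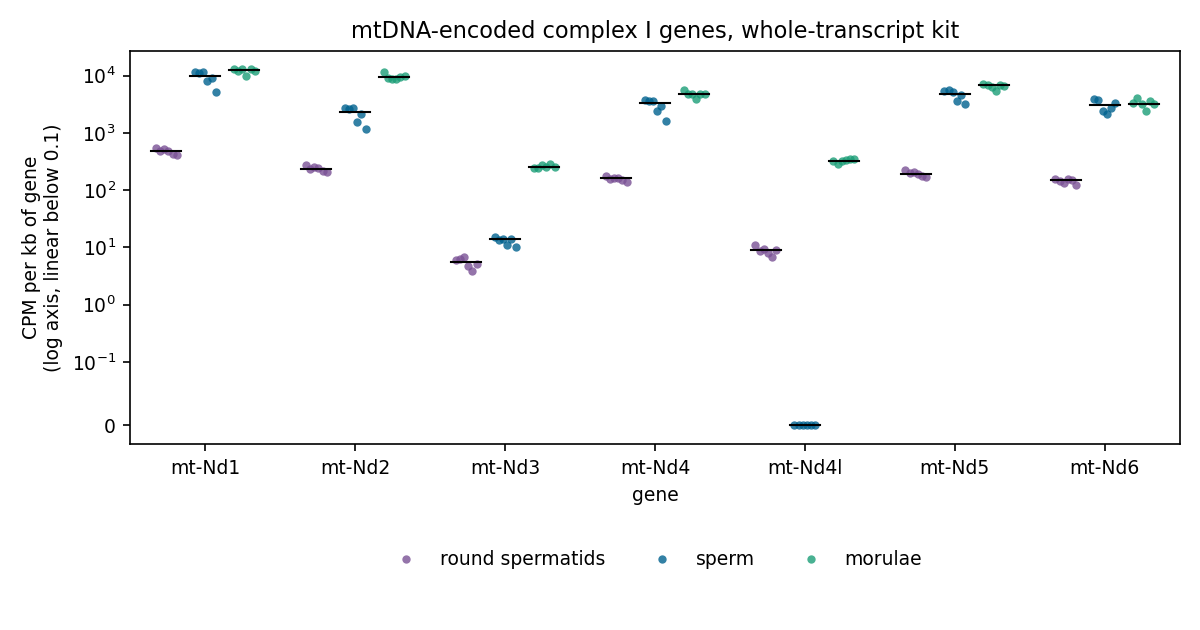
Level of each of the 7 genes in CPM per kb (log axis, linear below 0.1) in the 6 libraries each of round spermatids, sperm and morulae, with points for libraries and bars for medians. mt-Nd3 and mt-Nd4l lie far below the other 5 genes in every tissue, and mt-Nd4l is at 0 in the 6 sperm libraries.

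Between these tissues, the level of 6 of the 7 genes was highest in morulae and lowest in round spermatids by the mean. The exception was mt-Nd4l, which was lowest in sperm. For mt-Nd1, mt-Nd5 and mt-Nd6 the ranges of sperm and morula libraries overlapped. mt-Nd6 had 1576 ± 371 CPM in sperm and 1706 ± 280 CPM in morulae (mean ± SD, n = 6 each). The means were further apart for mt-Nd1, at 9022 ± 2400 CPM in sperm and 11730 ± 1252 in morulae. For mt-Nd5 they were 8442 ± 1813 and 12013 ± 1242 CPM. For mt-Nd2, mt-Nd3, mt-Nd4 and mt-Nd4l the ranges did not overlap. mt-Nd2 had 2227 ± 696 CPM in sperm against 10023 ± 1053 in morulae and 247 ± 24.8 in round spermatids. No test was made of these levels, since the kit's 3 tables differ in read type (single-ended in sperm, paired in the others) and in RNA preparation. The 7 genes took 0.118% to 0.154% of all counts in round spermatids, 1.603% to 3.10% in sperm and 3.50% to 4.70% in morulae.

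The balance among the 7 genes was compared as each gene's percentage of their summed CPM per kb, by exact two-sided permutation tests over 6 libraries against 6, adjusted by Benjamini-Hochberg over 21 tests. These tests compare the same 3 tables, so tissue cannot be told apart from read type and RNA preparation in them. mt-Nd2 showed the widest differences. It made up 19.3% ± 0.170 of the sum in round spermatids, 9.46% ± 0.971 in sperm and 26.1% ± 2.10 in morulae (SD, n = 6), with no overlap between any pair of tissues and an adjusted exact permutation p of 0.00379 for each pair. mt-Nd1 made up 39.1% ± 0.724, 42.0% ± 3.50 and 33.0% ± 1.73, and was lower in morulae than in round spermatids (adjusted exact permutation p = 0.00379) and than in sperm (0.00649), while round spermatids and sperm did not pass (0.0963). mt-Nd5 was 15.8% ± 0.455, 20.9% ± 0.790 and 17.7% ± 0.373, and all pairs passed at an adjusted exact permutation p of 0.00379, although sperm against morulae did not over the 13 mRNAs of mtDNA (a difference of 0.15 percentage points, adjusted exact permutation p = 0.742). With the 13 mRNAs of mtDNA as the denominator, mt-Nd1 instead had a larger share in morulae than in round spermatids (a difference of -4.76 percentage points, round spermatids minus morulae), since the 7 genes made up a median of 45.3% of the 13-gene sum in round spermatids, 58.2% in sperm and 68.2% in morulae. Over that denominator mt-Nd1 was also lower in round spermatids than in sperm (-6.81 points, adjusted exact permutation p = 0.00284).

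For mt-Nd4 no pair of tissues passed. Its share was 12.9% ± 0.257 in round spermatids, 13.4% ± 1.11 in sperm and 12.8% ± 0.387 in morulae, with differences of -0.545 to 0.600 percentage points and adjusted exact permutation p of 0.294 to 0.801. Over the 13-gene denominator its share was lower in round spermatids than in morulae by 2.89 percentage points and lower in sperm than in morulae by 0.895, and both passed the test. mt-Nd6 was 11.8% ± 1.08, 14.2% ± 4.47 and 8.83% ± 1.03, lower in morulae than in both other tissues (adjusted exact permutation p = 0.00649 against round spermatids and 0.00909 against sperm). Over the 13-gene denominator its difference between round spermatids and morulae changed sign to -0.68 percentage points (round spermatids minus morulae) and did not pass (adjusted exact permutation p = 0.0977), while sperm stayed above morulae (2.32 points, 0.0431). mt-Nd3 and mt-Nd4l differed in all pairs, on shares of at most 1.07% in a library, and the part of read type in this was not tested. With sperm and morulae restricted to the 3 libraries of 1 diet, no share passed, at an adjusted p of 0.05 or more, in a design where the unadjusted p cannot go below 0.1 for 3 sperm against 3 morula libraries or below 0.0238 for either against 6 round spermatid libraries.

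**Figure D2:**
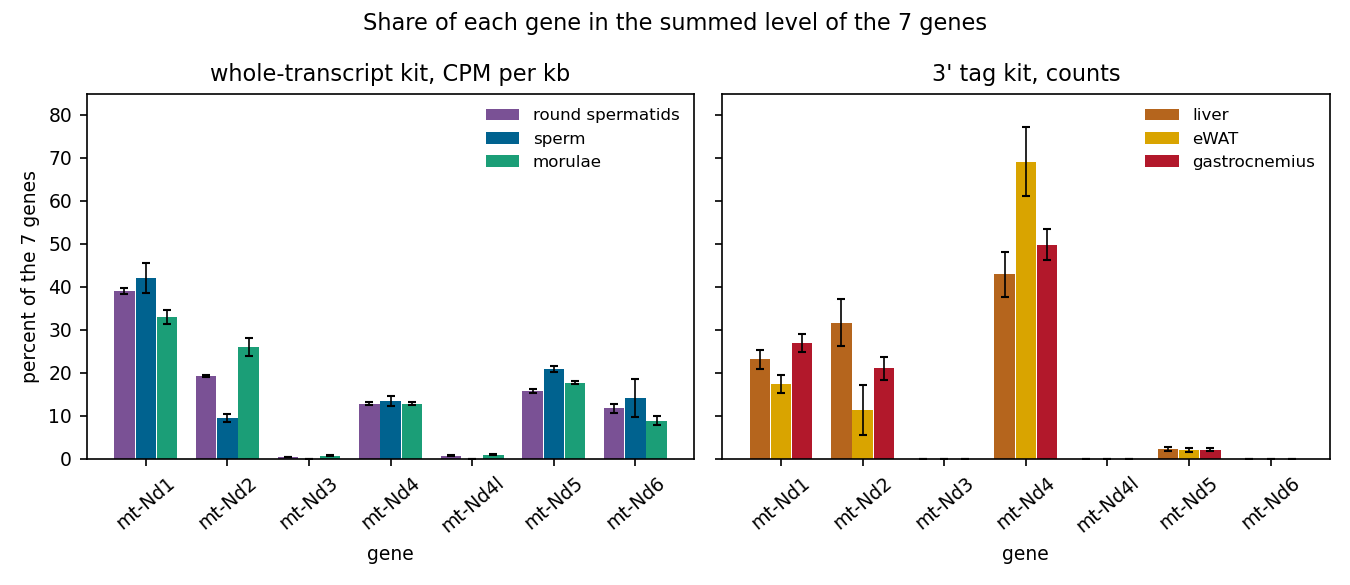
Percentage that each gene makes up of the 7 genes' sum, as CPM per kb for the whole-transcript kit (left) and as counts for the 3′ tag kit (right), with bars for means and error bars for SD over 6 libraries. mt-Nd2 runs from 9.46% in sperm to 26.1% in morulae on the left, and mt-Nd4 from 42.9% in liver to 69.1% in eWAT on the right.

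Diet of the male was compared first in sperm, where 6 of the 7 genes had higher CPM in HFD than in LFD sperm by the mean, and 4 of them did so without overlap. mt-Nd1 had 10925, 10560 and 11198 CPM in the HFD libraries and 7746, 8722 and 4978 in the LFD libraries. mt-Nd2, which lies closest to mt-Nd1 on the same strand, had 2858, 2685 and 2832 CPM against 1582, 2194 and 1211. For both genes every HFD library was above every LFD library, and the LFD libraries were the more spread. mt-Nd4 had 5177, 5037 and 5038 CPM against 3353, 4148 and 2233, and mt-Nd5 had 10008, 10242 and 9540 against 6691, 8269 and 5902. The diets again did not overlap.

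The other 3 genes did not separate the diets on this scale. mt-Nd6 had 2005, 1958 and 1259 CPM in HFD and 1102, 1435 and 1698 in LFD libraries, with 1 HFD library among the LFD values. mt-Nd3 had 5.34, 4.68 and 4.89 CPM against 3.78, 4.92 and 3.52, which rests on 9 to 19 counts a library. mt-Nd4l was at 0 throughout. As ratios of the diet means, mt-Nd2 was 1.68-fold, mt-Nd4 1.57-fold, mt-Nd1 1.52-fold, mt-Nd5 1.43-fold, mt-Nd6 1.23-fold and mt-Nd3 1.22-fold higher in HFD sperm. By CPM, 0.555% of all 8643 genes tested were higher in HFD sperm without overlap and 57.2% were lower.

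edgeR's quasi-likelihood test, with library sizes scaled by TMM, called none of the 7 genes. After TMM scaling, the 6 tested genes had log2 fold changes (HFD over LFD) of 1.98 ± 0.82 for mt-Nd3 (estimate ± SE), 2.04 ± 0.55 for mt-Nd6, 2.20 ± 0.70 for mt-Nd5, 2.28 ± 0.74 for mt-Nd1, 2.31 ± 0.68 for mt-Nd4 and 2.43 ± 0.64 for mt-Nd2. Adjusted p over all genes was 0.232 to 0.320 (edgeR, Benjamini-Hochberg). mt-Nd4l did not pass the filter on low counts. The 6 estimates were positive and the unadjusted p was under 0.05 for 6 of 6, beside 13% of all genes tested (1122 of 8643, of which 720 were higher in HFD sperm), while 0% passed after adjustment. The 6 genes are cut from long precursors of the same mtDNA, so they are not 6 independent observations. On this scale the diets did not overlap for 6 of 6 genes, beside 8.12% of all genes higher without overlap and 12.3% lower. DESeq2 called 5 of the 6, all but mt-Nd3 (adjusted p = 0.0863), and 3.41% of all genes (295), whereas limma-voom called 0 genes.

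The size of the difference depended on the scale. TMM factors were 0.442 to 0.716 for HFD and 1.52 to 2.58 for LFD libraries, and with library totals in their place the median log2 fold change of all genes moved from -0.07 to -1.82. The 6 genes then had a median of 0.56, with mt-Nd3 at 0.28 and mt-Nd2 at 0.75, and adjusted p of 0.192 to 0.822 (edgeR). Scaled by mtDNA counts, their log2 fold changes were -0.28 (mt-Nd6) to 0.26 (mt-Nd2), and the 2 genes mt-Nd6 and mt-Nd3 turned negative. mtDNA-encoded RNA as a whole, most of it rRNA, was 78.1% to 84.3% of counts in HFD and 43.5% to 64.7% in LFD sperm. The 7 genes made up 3.68%, 3.903% and 3.78% of those mtDNA counts in HFD and 3.23%, 3.83% and 3.69% in LFD libraries, which overlapped.

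Other RNA also differed between the diets in these 6 libraries, and this depended on the scale. Summed CPM of the 5 epididymal epithelium genes was 2421, 3538 and 1952 in HFD and 3659, 10863 and 32081 in LFD sperm, without overlap. By CPM, 57.2% of all genes tested were lower in HFD sperm without overlap. After TMM scaling, Crisp1 of this list overlapped, at 3708, 3638 and 3584 in HFD and 1629, 5008 and 9098 in LFD sperm. Spink8 and Gpx5 overlapped too. The LFD library with 32081 CPM was also the one with the lowest mt-Nd1, mt-Nd2, mt-Nd4 and mt-Nd5. Without it the log2 fold changes of the 6 genes were 1.72 to 2.11, with adjusted p of 0.706 to 0.814 (edgeR). The 5 leukocyte genes summed to 26.4 to 52.9 CPM and the 5 erythroid genes to 32.4 to 250.5 CPM, both overlapping between the diets. The part of epididymal RNA in the difference of the 7 genes was not tested.

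The nuclear partners of the 7 genes were spread around 0 on the TMM scale. None of the 6 tested genes of the nuclear-encoded core, 26 of the accessory subunits and 8 assembly factors passed (edgeR). Their medians were -0.19, -0.18 and 0.35, beside 2.24 for the 6 mtDNA-encoded genes and -0.07 for all genes. With library totals the medians were -1.92, -1.93 and -1.57, beside -1.82 for all genes, and 1, 13 and 1 of these genes were called lower, where that scaling called 37.8% of all genes lower and 0.0116% higher. The highest core subunit was Ndufs8 (0.62 ± 0.62, adjusted p = 0.729 by edgeR). At the ends of the accessory list stood Ndufb3 (1.64 ± 0.76, adjusted p = 0.384) and Ndufab1, the acyl carrier protein of the mitochondria (-1.41 ± 0.93, 0.567; edgeR). Of the assembly factors Timmdc1 was highest (1.23 ± 0.97, adjusted p = 0.638 by edgeR). Ndufaf8 was lowest, with no counts in the 3 HFD libraries and 7.46, 2.73 and 1.82 TMM-scaled CPM in the LFD libraries.

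**Figure D3:**
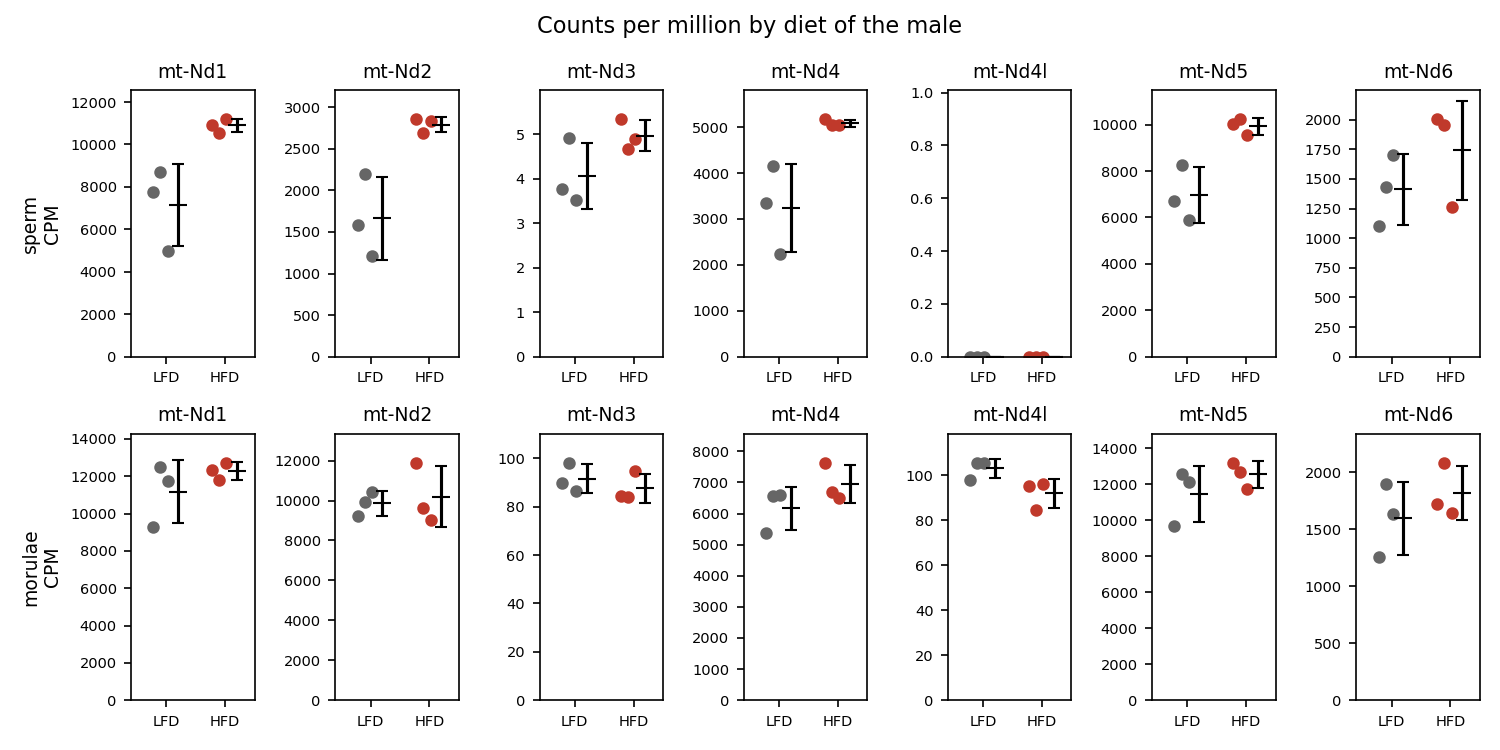
CPM of each of the 7 genes in sperm (upper row) and morulae (lower row) by diet of the male, with points for libraries and, beside them, mean ± SD (n = 3). In sperm, mt-Nd1, mt-Nd2, mt-Nd4 and mt-Nd5 show no overlap of the diets; in morulae mt-Nd4l alone does not overlap.

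Whether the balance among the genes differed between the diets was asked of the same percentages. With 3 libraries against 3, the smallest exact permutation p is 0.1. In sperm, mt-Nd3 alone did not overlap: 0.0537% ± 0.00303 of the sum in HFD and 0.0653% ± 0.00443 in LFD (exact permutation p = 0.1, adjusted 0.6 over 6 testable genes). mt-Nd2 made up 10.1% ± 0.449 in HFD and 8.80% ± 0.911 in LFD sperm, and mt-Nd6 12.6% ± 2.73 and 15.8% ± 5.90 (exact permutation p = 0.2 and 0.6). In the LFD library with the most epididymal RNA mt-Nd6 reached 22.6% of the sum, the highest value in sperm, and without that library its difference between the diets turned from -3.19 to 0.21 percentage points.

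In morulae the 7 genes differed little between the fathers' diets, and no gene passed the test. mt-Nd1 had 12329, 11784 and 12735 CPM with HFD and 9300, 12478 and 11755 with LFD fathers. mt-Nd5 had 13216, 12690 and 11745 CPM against 9691, 12580 and 12157. The LFD value that stands lowest in both belongs to 1 library, which also had the lowest mt-Nd4 and mt-Nd6. mt-Nd2 had 11903, 9649 and 9005 CPM against 9207, 9939 and 10433, and mt-Nd4 7639, 6693 and 6511 against 5372, 6559 and 6579. mt-Nd6 had 1719, 2086 and 1643 CPM against 1256, 1897 and 1632. The diets overlapped for all of these genes.

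mt-Nd4l was the one gene with no overlap in CPM in morulae, at 95.2, 84.5 and 96.3 with HFD against 98.1, 105.7 and 105.3 with LFD fathers; 5.29% of all genes were lower without overlap by CPM and 6.6% higher. After TMM scaling it overlapped, as did the other 6, beside 6.18% of genes lower and 5.94% higher without overlap. mt-Nd3 had 84.5, 83.9 and 94.7 CPM against 89.9, 98.3 and 86.7. Log2 fold changes from edgeR ran from -0.18 ± 0.11 (mt-Nd4l) and -0.09 ± 0.11 (mt-Nd3) through 0.03 ± 0.10 (mt-Nd2), 0.11 ± 0.10 (mt-Nd5), 0.11 ± 0.09 (mt-Nd1) and 0.15 ± 0.10 (mt-Nd4) to 0.16 ± 0.13 (mt-Nd6), with adjusted p of 0.821 to 0.979. Their median was 0.11, beside 0.01 for all genes. Unadjusted p was under 0.05 for 0 of 7 genes, beside 6.38% of all 13447 genes tested (858), and 0% passed after adjustment. DESeq2 called 18 genes (0.134%), none of them among the 7, and limma-voom 0. The SE of these estimates was 0.09 to 0.13, against 0.55 to 0.82 in sperm.

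As a share of the 7 genes, mt-Nd4 was 13.04% ± 0.415 with HFD and 12.6% ± 0.203 with LFD fathers, and mt-Nd4l 0.803% ± 0.0670 and 0.980% ± 0.0806 (SD, n = 3), in both cases without overlap and at the smallest exact permutation p of 0.1 (adjusted 0.35 over 7 genes). The other 5 shares overlapped. Of the nuclear partners, 7 core genes, 29 accessory subunits and 14 assembly factors were tested and none passed (edgeR). The ends of the lists were Ndufs3 (0.42 ± 0.17) and Ndufs8 (-0.31 ± 0.21) for the core, Ndufa7 (0.39 ± 0.22) and Ndufa2 (-0.46 ± 0.22) for the accessory subunits, and Acad9 (0.49 ± 0.19) and Ndufaf5 (-0.35 ± 0.31) for the assembly factors, with edgeR's adjusted p of 0.704 to 0.899.

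In the offspring tissues, 4 of the 7 genes carried nearly all counts. mt-Nd4 was the highest by mean in each tissue, with 36459, 44479 and 62131 CPM (lowest, median and highest of 6) in liver, 36005, 48458 and 90587 in eWAT and 72366, 117913 and 153830 in gastrocnemius. mt-Nd1 had 20861, 25728 and 29328 CPM in liver, 11602, 13474 and 19058 in eWAT and 44230, 63025 and 76814 in gastrocnemius. mt-Nd2 had 28631, 34010 and 39668, then 4686, 8333 and 13528, and then 40244, 47346 and 59887 CPM in the same order. In gastrocnemius and eWAT mt-Nd1 stood above mt-Nd2 in 6 of 6 libraries each. In liver mt-Nd2 stood above mt-Nd1 in 6 of 6, and above mt-Nd4 in 1 of 6.

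mt-Nd5, the longest of the genes, had far fewer ends counted: 2042, 2391 and 2958 CPM in liver, 1489, 1576 and 1834 in eWAT, and 4293, 4670 and 5612 in gastrocnemius. The remaining 3 genes were near the limit of counting. mt-Nd6 had 5 to 43 counts in a liver library, 5 to 18 in an eWAT library and 7 to 37 in a gastrocnemius library, or 11.9 ± 6.85, 3.804 ± 1.24 and 15.05 ± 7.32 CPM (SD, n = 6). mt-Nd3 had 0 counts in the liver and eWAT libraries and 1 to 5 in each gastrocnemius library, and mt-Nd4l had 1 count in all of liver, 1 in all of eWAT and 0 in gastrocnemius. Summed over a tissue, 0 counts of mt-Nd3 in liver allow up to 0.223 CPM and in eWAT up to 0.169 CPM, counting error only. Reads of mt-Nd3 RNA that were assigned elsewhere or to no gene are not in these limits. Of windows of 50 bases, the read length of these libraries, 98.0% in mt-Nd3 and 98.8% in mt-Nd4l were also found in annotated nuclear transcripts. The part of these copies in the low counts was not tested. The mtDNA mRNAs mt-Co2, mt-Co3, mt-Atp6 and mt-Atp8, which are no subunits of complex I, were at 0 in the 18 libraries of these tissues. In gastrocnemius, 20 counts of mt-Nd3 in 9850922 were 2.03 CPM (exact Poisson 95% interval 1.24 to 3.14).

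**Figure D4:**
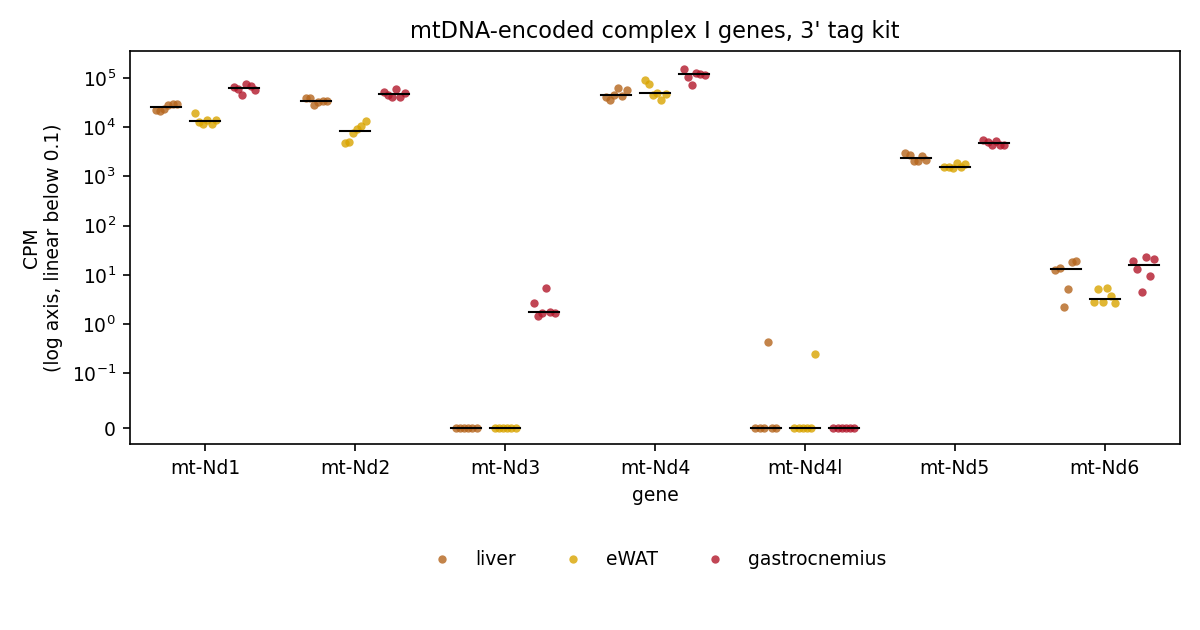
CPM of each of the 7 genes (log axis, linear below 0.1) in 6 libraries each of liver, eWAT and gastrocnemius, with points for libraries and bars for medians. mt-Nd4, mt-Nd1 and mt-Nd2 lie above 4000 CPM everywhere, and mt-Nd3, mt-Nd4l and mt-Nd6 below 30 CPM.

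Between the tissues, gastrocnemius stood highest and eWAT lowest for most of these genes. The 5 genes that passed the filter on low counts (all but mt-Nd3 and mt-Nd4l) were fitted with edgeR over 10851 genes. All 5 were lower in eWAT than in gastrocnemius, by log2 fold changes of -1.99 ± 0.41 for mt-Nd4, -2.51 ± 0.22 for mt-Nd5, -2.87 ± 0.45 for mt-Nd6, -3.12 ± 0.35 for mt-Nd1 and -3.45 ± 0.40 for mt-Nd2 (± SE). edgeR's adjusted p was 0.000177 for mt-Nd4 and at most 6.88e-06 for the others, beside 26.3% of all genes called lower and 41.1% called higher. In liver against gastrocnemius, mt-Nd1 (-1.31 ± 0.33, adjusted p = 0.00124), mt-Nd4 (-1.31 ± 0.40, 0.00604) and mt-Nd5 (-1.01 ± 0.21, 0.000199) were lower by edgeR, where 31.4% of all genes were called lower and 34.9% higher. mt-Nd2 (-0.49 ± 0.36, edgeR adjusted p = 0.236) and mt-Nd6 (-0.29 ± 0.41, 0.544) did not pass, although the 6 liver libraries of mt-Nd2 lay below the 6 of gastrocnemius in CPM.

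In liver against eWAT, 4 of the 5 genes were higher in liver, beside 28.9% of all genes called higher and 32.6% called lower. They were mt-Nd2 (2.96 ± 0.39, edgeR adjusted p = 5.02e-07), mt-Nd6 (2.58 ± 0.44, 1.86e-05), mt-Nd1 (1.81 ± 0.33, 5.57e-05) and mt-Nd5 (1.495 ± 0.21, 1.86e-06). For mt-Nd6 the CPM ranges of liver (2.25 to 19.2) and eWAT (2.71 to 5.44) overlapped. Its share of the 7 genes did not differ between them by test (adjusted exact permutation p = 0.0938). In each tissue comparison mt-Nd6 rests on at most 43 counts in a library, from a kit that reads polyadenylated RNA. mt-Nd4 was the exception. Its log2 fold change was 0.68 ± 0.39 with an adjusted p of 0.143 by edgeR, DESeq2 called it (0.68, adjusted p = 0.00541), and with library totals it was -0.26 (adjusted p = 0.526 by edgeR). That scaling moved the median of all genes in this comparison from -0.07 to -0.996, and in eWAT against gastrocnemius from 0.35 to 1.32, and left the calls of the other 4 genes in place at other sizes. In liver against eWAT mt-Nd1 was then 0.87 and mt-Nd5 0.57, mt-Nd2 2.05 and mt-Nd6 1.65. In eWAT against gastrocnemius the 5 genes were -1.02 (mt-Nd4) to -2.52 (mt-Nd2). eWAT held markers of other cells: the leukocyte genes summed to 658 to 1242 CPM there against 30.9 to 92.3 in liver and 40.4 to 59.2 in gastrocnemius, and the erythroid genes to 4146 to 14074 against 314 to 509 and 403 to 598. The muscle genes summed to 39.6 to 1230 CPM in eWAT and the liver genes to 40.4 to 648. The eWAT library with the highest mt-Nd1 and mt-Nd4 stood apart in its markers: spermatid and sperm genes summed to 79.2 CPM there against at most 2.72 in the other 5, the morula list to 113 against at most 15.97, and the fat genes to 14878, the lowest of the 6. Without it (an alternative chosen after seeing the data), 4 of the 5 genes were again higher in liver than in eWAT and 5 lower in eWAT than in gastrocnemius, with mt-Nd4 at 0.79 (edgeR adjusted p = 0.0985) and -2.12 (0.000116). The part of other cells in the levels of eWAT was not tested.

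The nuclear-encoded core and accessory subunits of complex I that were called were, on the TMM scale, lower in liver and in eWAT than in gastrocnemius and higher in liver than in eWAT. Of the 6 core genes tested, 6 were lower in liver than in gastrocnemius, 6 were higher in liver than in eWAT, and 6 were lower in eWAT than in gastrocnemius (edgeR). Of all genes, 31.4%, 28.9% and 26.3% were called in these directions. The core subunit Ndufv2, an iron-sulphur protein of the NADH-oxidising module, had log2 fold changes of -1.81 ± 0.17, 1.48 ± 0.17 and -3.29 ± 0.18 in these 3 comparisons, and Ndufv1, the flavin-carrying subunit of the same module, had the smallest fall from gastrocnemius to liver (-0.57 ± 0.19) and to eWAT (-1.31 ± 0.19). Without the filter on low counts, Ndufv1 did not pass in liver against gastrocnemius (-0.51, edgeR adjusted p = 0.0661). Of 29 accessory subunits, 23 were lower in liver than in gastrocnemius with Ndufa5 at -2.12 ± 0.24, 24 were higher in liver than in eWAT with Ndufa6 at 1.56 ± 0.17, and 28 were lower in eWAT than in gastrocnemius with Ndufa8 at -3.23 ± 0.29. None was called in the opposite direction. At the other ends of this list, Ndufs6 (0.08 ± 0.22), Ndufb8 (0.01 ± 0.15) and Ndufa2 (-0.23 ± 0.20) did not pass.

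The medians of the core were -1.35, 0.97 and -2.34 and those of the accessory subunits -0.84, 0.72 and -1.72, beside -1.01, 1.81 and -2.87 for the 5 mtDNA-encoded genes and 0.06, -0.07 and 0.35 for all genes. The 12 assembly factors tested were more mixed. In liver against gastrocnemius 5 were lower and 2 higher, beside 31.4% and 34.9% of all genes. In liver against eWAT 6 were higher, beside 28.9% of all genes. In eWAT against gastrocnemius 9 were lower, beside 26.3% of all genes. Ndufaf5, a hydroxylase of a core subunit, was the lowest assembly factor in both comparisons with gastrocnemius (-3.51 ± 0.28 for liver and -3.20 ± 0.25 for eWAT). Foxred1 was the highest assembly factor in both (0.89 ± 0.32, called, and 0.35 ± 0.31, not called). In liver against eWAT the ends were Ndufaf6 (1.61 ± 0.20) and Ndufaf7 (-0.51 ± 0.28, not called). With library totals in place of TMM, liver against eWAT gave 1 core gene higher and 1 lower, and 1 accessory subunit higher and 7 lower. Of the assembly factors 3 were higher and 5 lower, where 13% of all genes were called higher and 64.5% lower. The medians of the core and the accessory subunits were then 0.03 and -0.22, beside -0.996 for all genes. In eWAT against gastrocnemius the totals gave 5 core genes and 20 accessory subunits lower, and 1 accessory subunit higher. Of the assembly factors 5 were lower and 3 higher, where 11.3% of all genes were called lower and 67.8% higher.

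The balance of the 7 genes also differed between the offspring tissues, as percentages of their summed counts, over 20 testable pairs of gene and tissue. mt-Nd4 made up 69.1% ± 8.04 in eWAT against 42.9% ± 5.28 in liver and 49.8% ± 3.60 in gastrocnemius, with no overlap and an adjusted exact permutation p of 0.00541 for both. Liver and gastrocnemius did not pass for this gene (adjusted exact permutation p = 0.0590). mt-Nd2 made up 31.7% ± 5.56 in liver, 11.3% ± 5.80 in eWAT and 21.02% ± 2.74 in gastrocnemius, and all pairs passed (adjusted exact permutation p = 0.00541 for both comparisons with liver and 0.0144 for eWAT against gastrocnemius). mt-Nd1 made up 23.1% ± 2.11, 17.4% ± 2.04 and 27.02% ± 2.12, and again all pairs passed (0.00541 to 0.0260). mt-Nd5 did not pass for any pair, at 2.23% ± 0.480, 2.11% ± 0.485 and 2.12% ± 0.304, with adjusted exact permutation p of 0.855 to 1.00. mt-Nd6 made up at most 0.0169% in any library, and no pair passed (adjusted exact permutation p of 0.0938 to 0.445). mt-Nd3 passed for gastrocnemius against liver and against eWAT (adjusted exact permutation p = 0.00541 for both, without overlap). This rests on 1 to 5 counts in a gastrocnemius library, beside 0 in the liver and eWAT libraries.

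mt-Nd6 was last set against the genes on both sides of it, mt-Nd5 and mt-Cytb (cytochrome b of complex III), which are read from the opposite strand. Its CPM per kb was divided by the mean of theirs. With the whole-transcript kit the median over 6 libraries was 48.1% of the flanks in round spermatids (43.1% to 60.9%), 46.7% in sperm (30.8% to 83.2%) and 40.05% in morulae (38.0% to 48.2%). With the 3′ tag kit it was 0.475% in liver (0.0840% to 1.04%), 0.190% in eWAT (0.129% to 0.344%) and 0.255% in gastrocnemius (0.0745% to 0.378%). Length moves these values, since mt-Nd6 is the shortest of the 3 genes: as plain CPM, the scale of the other tag-kit values, the medians were 0.201% in liver (0.0358% to 0.428%), 0.0800% in eWAT (0.0545% to 0.144%) and 0.108% in gastrocnemius (0.0319% to 0.161%). The Nextera kit does not keep the strand, so with the first 3 tissues reads of mt-Nd6 mRNA and of the opposite strand's precursor across the same bases cannot be told apart. The kits cannot be compared by a test, since no tissue was measured with both.

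Within a kit no pair of tissues and neither diet comparison passed, the tag-kit pairs on either scale. On the log2 scale the ratio was -0.99 ± 0.18 in round spermatids, -1.05 ± 0.47 in sperm and -1.27 ± 0.14 in morulae (SD, n = 6). Round spermatids against morulae came nearest, with a difference of 0.28 (exact permutation p = 0.0173, adjusted 0.139 over 8 tests). In sperm it was -1.24 ± 0.41 with HFD and -0.87 ± 0.52 with LFD, and in morulae -1.26 ± 0.18 and -1.29 ± 0.12 (n = 3, exact permutation p = 0.6 and 0.8). The highest single value in sperm, 83.2% of the flanks, came from the LFD library with the most epididymal RNA.

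**Figure D5:**
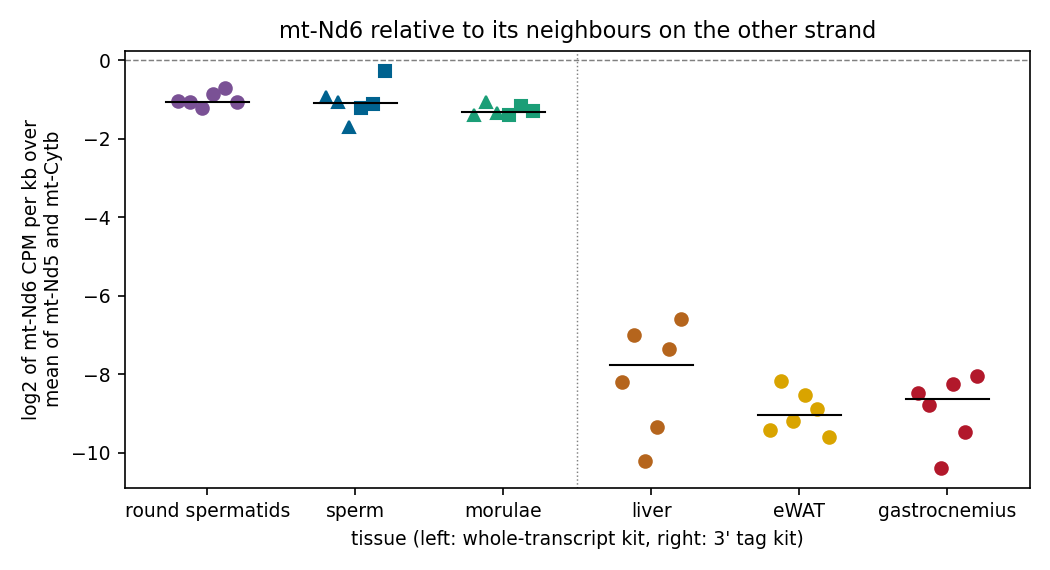
Log2 of the CPM per kb of mt-Nd6 over the mean of mt-Nd5 and mt-Cytb in the 36 libraries, with bars for medians, triangles for HFD, squares for LFD and circles where the diet is not shown by the columns. The 18 libraries of the whole-transcript kit lie between -1.70 and -0.26 and the 18 of the 3′ tag kit between -10.39 and -6.59.

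Nuclear genes whose pattern was most like that of the 7 genes were ranked by Pearson's r of log2(CPM + 1) with the mean of the 7 over the 18 libraries of a kit, as a description, since these libraries fall into 3 tissues each. With the whole-transcript kit the 5 highest of 9044 genes were Gm29216 (r = 0.991), Gm13339 (0.976), Ddr2 (0.976), Gm10222 (0.975) and Tet2 (0.968). Of these, 3 are nuclear copies of mtDNA: 430 of 443 windows of 50 bases in Gm29216, 81 of 461 in Gm13339 and 245 of 245 in Gm10222 were identical to mtDNA transcripts. Ddr2, a collagen receptor, and Tet2, which oxidises 5-methylcytosine, had no such window, and like 6 of the 7 genes (all but mt-Nd4l) had their highest CPM in morulae (51.9 and 707) and their lowest in round spermatids (0.823 and 0.932). With the 3′ tag kit the 5 highest of 7570 genes were Tuba4a (0.938), Gm28926 (0.938), Retreg1 (0.935), Atp5mpl (0.932) and Coq8a (0.931), none of which shared a window. Tuba4a is an alpha-tubulin, Retreg1 an ER-phagy receptor, Atp5mpl a small subunit of ATP synthase and Coq8a a protein of coenzyme Q synthesis. All were highest in gastrocnemius and lowest in eWAT, Tuba4a for example at 1015 and 27.1 CPM.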

How the data were processed

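The authors deposited raw counts per gene, 1 table per tissue, made with BBDuk (trimming), STAR (mapping to GRCm38) and featureCounts; the strand and multi-mapping settings are not given in the sources used here. Counts were used as deposited. Diet in sperm and morula was read from the column letters and the sample titles; the descriptions of 3 morula samples give the opposite diet and were not followed. Columns of the other 4 tables name a tissue only. Of per-sample columns, none was left unused.

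Symbols were matched by identifier. The members, lists and tests were chosen with earlier results of these data known. edgeR 4.0.16 (R 4.3.3; filterByExpr, minimum count 10; TMM; quasi-likelihood; Benjamini-Hochberg, 0.05) was fitted to sperm, morulae and the 3 offspring tissues separately, in place of the authors' NOISeq. DESeq2 1.42.0, limma-voom (limma 3.58.1) and other scalings, filters and left-out libraries were alternatives. Shares and ratios were tested by exact two-sided permutation (scipy 1.17.1); 6 against 6 cannot go below 0.00216. The fits were tested on simulated counts. Named genes were the 7 members, mt-Cytb, the largest and smallest log2 fold change of each nuclear list, and the 5 genes most alike (mean of at least 10 CPM); values of 1 gene that this rule names are not reported here, and the counts and medians of its list include it. Labels do not say whether libraries are separate animals, so p-values measure only the spread between libraries. A count of 0 was taken to allow 3 counts, and intervals are for counting error only. Figures used matplotlib 3.10.9 (Python 3.11.15). No libraries of a group agreed within sampling noise (chi-square per degree of freedom at least 3.50).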

Additional observations from a re-analysis of the deposited data

Results flagged for a closer look

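Dixon's test was applied to 54 sets of 6 library values, each a level, share or ratio of a gene in 1 tissue. In 7 of them a value stood apart, where chance gives about 5% for independent sets. The sets are not independent, since the level and the share of a gene rest on the same counts. For mt-Nd4l, a single count beside libraries at 0 must stand apart. In eWAT the highest mt-Nd1 level was 19058 CPM, with the others at 11602 to 14277 CPM; this library also had 79.2 CPM of spermatid and sperm genes, against at most 2.72 in the other 5. In gastrocnemius 1 library had mt-Nd3 at 5.34 CPM and the others at 1.45 to 2.70 CPM, and its share of mt-Nd3 in the 7 genes was 0.00198% against 0.000678% to 0.00103%, which rests on 1 to 5 counts a library. mt-Nd4l was at 0 in 5 liver and 5 eWAT libraries, and the remaining library of each tissue had a single count, 0.439 CPM (0.000353% of the 7 genes) in liver and 0.247 CPM (0.000320%) in eWAT.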

How the results depend on the processing

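Genes called among the 7 stayed at 0 in morulae and within 1.5 times in the tissue comparisons under the other tools, scalings and filters; in sperm they numbered 0 except with DESeq2 (5). Sperm columns share 2 numbers between the diets, with correlations of deviations of 0.106 and -0.155, so they were not taken as pairs: with a replicate block by number, 0 of the 7 genes and 2 of all genes passed, at adjusted p of 0.784 to 0.940 for the 6 tested (edgeR). For the other tables no paired analysis was possible because the columns share no number between groups. Genes called over all genes numbered 41 in sperm and 63 in morulae without the filter, against 0.

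Signs changed as follows, and the cause was not tested. In sperm, log2 fold changes with library totals were -0.11 for Ndufb3, -1.11 for Ndufs8 and -0.59 for Timmdc1, and with mtDNA totals -0.67, -1.73 and -1.18 for these, -0.22 for mt-Nd3 and -0.28 for mt-Nd6. Liver over eWAT with library totals gave -0.26 for mt-Nd4 and -0.91 for Ndufb8; Ndufb8 was -0.034 without the filter and -0.0067 without the shallowest gastrocnemius library (chosen after seeing the data), and -0.0519 without the eWAT library with the most sperm RNA (also chosen then). Ndufa2 was 0.74 in eWAT over gastrocnemius with library totals. With 1 morula library left out, log2 fold changes were -0.017 to 0.20 for mt-Nd1, -0.14 to 0.13 for mt-Nd2 and -0.013 to 0.18 for mt-Nd5.

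Shares without overlap of the diets numbered 1 to 3 genes in sperm with 1 library left out, and 1 in morulae with 13 mRNAs as denominator. HFD minus LFD was then -0.94 to 3.802 points for mt-Nd1 and -5.12 to 0.21 for mt-Nd6 in sperm, and in morulae -0.78 to 1.55 for mt-Nd1, -0.075 to 0.36 for mt-Nd5 and -0.24 to 1.01 for mt-Nd6. Of tissue shares, mt-Nd5 was 0.0194 points (eWAT minus gastrocnemius, 13 mRNAs), 0.0799 (counts per kb) and -0.0335 (liver minus eWAT, counts per kb); without that eWAT library it was -0.0319 (liver minus eWAT) and 0.140 (eWAT minus gastrocnemius), and mt-Nd4l was -5.19e-06 (liver minus eWAT). Round spermatids minus morulae over 13 mRNAs were -4.76 for mt-Nd1, -2.89 for mt-Nd4 and -0.68 for mt-Nd6, sperm minus morulae -0.895 for mt-Nd4, and round spermatids minus HFD morulae -0.18 for mt-Nd4. With 1 diet alone 0 tissue shares passed.

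mt-Nd6 over its flanks differed between round spermatids and morulae by 0.58 with mt-Nd5 alone (adjusted exact permutation p = 0.0173, n = 6), between round spermatids and sperm by -0.014 with mt-Cytb alone, and between diets in morulae by -0.073 to 0.093 with 1 library left out. In the offspring tissues (369772 to 4055537 counts a library) mt-Nd3, mt-Nd4l and mt-Nd6 rest on at most 43 counts in a library, which limits the precision of their differences. The cause of their low levels was not tested.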

Other observations

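In eWAT, whose libraries belong to offspring of either glucose tolerance without the columns saying which, mt-Nd4 and mt-Nd2 varied between libraries more than mt-Nd5. mt-Nd4 had 90587, 74125, 45479, 49403, 36005 and 47513 CPM in the 6 libraries, and mt-Nd2 had 4686, 4887, 7501, 9166, 10449 and 13528 CPM in the same libraries. The 2 libraries with the most mt-Nd4 were those with the least mt-Nd2, and the one with 90587 CPM also held 79.2 CPM of spermatid and sperm genes, against at most 2.72 in the others. mt-Nd5 stayed at 1489 to 1834 CPM. In liver, mt-Nd6 had 12.5, 13.7, 2.25, 5.26, 18.3 and 19.2 CPM, while mt-Nd1 and mt-Nd2 each varied by less than 1.5-fold between the lowest and the highest library. No test was made of these differences.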
